A study of Bos taurus with 12 samples.

Results

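The comparison described here asks which transcripts differed at day 7 of the estrous cycle between the endometrium of Simmental heifers that later carried an embryo and that of heifers that did not. Both groups were sampled in the cycle before transfer, with a brush that passed the vagina and cervix inside a catheter. In the uterus the brush collected cells from the lining, and it was drawn back into the catheter before removal. Each heifer received an in vitro-produced blastocyst at day 7 of the next cycle. Heifers with an embryo visible by ultrasound at day 28 formed the high receptivity group (HR), and heifers without one formed the low receptivity group (LR). HR7 is the high receptivity group and LR7 the low receptivity group at day 7. Each group was measured as 3 pools of 5 samples, with 1 Affymetrix bovine array per pool, so 6 of the 12 arrays of the series belong to this comparison. The other 6 are the day 3 pools, HR3 and LR3. All animals were estrous synchronized. The labels do not say which heifers went into which pool, or whether pools of day 3 and day 7 hold the same heifers. A pool averages over its heifers, so the spread between pools is narrower than the spread between animals.

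All 24016 non-control probe sets of the array entered, and 7339 of them passed the filter on low and invariant signals and were tested. Of the tested probe sets, 4375 carried 1 gene symbol, for 3783 genes in all. The values are log2 signals on an arbitrary scale, on which a difference of 1 is a doubling. The median of an array lay between 6.64 and 6.72 at day 7.

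By day 7 of the cycle a corpus luteum is active and rising progesterone changes the secretions of the endometrial epithelium, well before any embryo attaches. The endometrium is lined by a simple columnar epithelium that contains secretory and ciliated cells, over a stroma with vessels and immune cells. The vagina and the outer cervix carry a stratified squamous epithelium instead, whose basal layer makes keratins 5, 14 and 15 and is anchored by hemidesmosomes. A brush sample holds whatever mixture of cells adheres to it. In such bulk RNA, fewer cells of a type and less RNA per cell cannot be told apart.

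The difference between HR7 and LR7 was small for most of the transcriptome and large for a few transcripts of basal epithelial cells. In the limma fit, 5 of 7339 probe sets passed an adjusted p of 0.05, or 0.0681%. All 5 were higher in HR7. Counted by genes with 1 probe set each, 2 of 3783 passed (0.0529%). Over these 3783 genes 1796 differences were above 0 and 1955 below. The 5 probe sets belonged to KRT15, with 2, COL17A1, RDH10 and 1 without a gene symbol in the annotation used here. Not 1 probe set was lower in HR7 at that threshold, against 131 (1.78%) at an unadjusted p under 0.05 in limma. At the same unadjusted threshold 200 probe sets were higher (2.73%), 331 in both directions together (4.51%). The 3 HR7 pools lay above all 3 LR7 pools for 362 probe sets (4.93%) and below them for 294 (4.01%). The likeness of pools within a group overlapped that of pools of different groups. Pearson's r over the probe sets was 0.956 to 0.965 within HR7, 0.937 to 0.957 within LR7 and 0.942 to 0.971 between them, each over pairs of arrays.

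**Figure D1:**
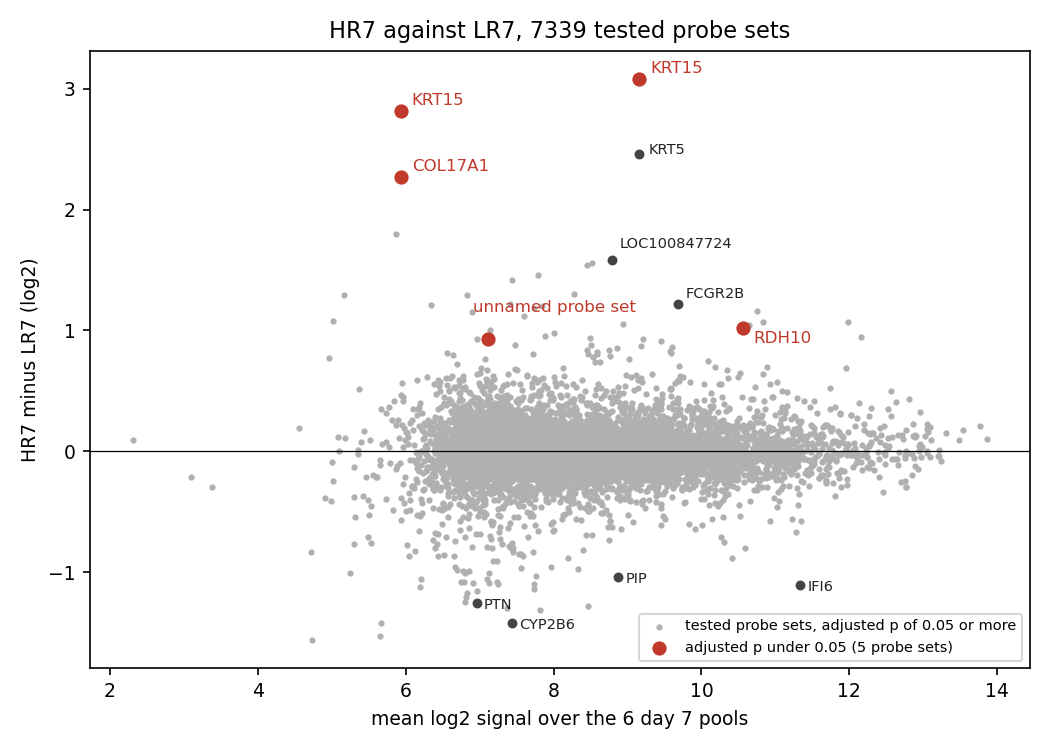
Difference between HR7 and LR7 (log2, vertical axis) against the mean log2 signal of the 6 day 7 pools (horizontal axis) for the 7339 tested probe sets. Red points passed an adjusted p of 0.05 in limma, and black points are other genes with large differences that did not. Both KRT15 probe sets, KRT5 and COL17A1 lie above 2, and no probe set lies below -2.

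The basal epithelial transcripts carried the largest differences. KRT15, a keratin of basal keratinocytes and of epithelial progenitor cells, had signals of 10.17, 10.66 and 11.27 in the HR7 pools and 7.61, 7.84 and 7.40 in the LR7 pools. The lowest HR7 pool stood 2.33 above the highest LR7 pool. The difference of 3.08 (standard error 0.31, n = 3 pools a group) corresponded to 8.48-fold more transcript, with a limma adjusted p of 0.00128. A second KRT15 probe set at lower signal was higher by 2.82 (standard error 0.36, adjusted p 0.00994 in limma), with no overlap. It was tested only through HR7, the group where it was high, and without a filter its adjusted p was 0.101 in limma, against 0.0367 for the first.

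COL17A1 encodes the transmembrane collagen of the hemidesmosome, which ties basal keratinocytes to the basement membrane. Its signal was 7.01, 7.02 and 7.17 in HR7, against 4.27, 5.18 and 4.94 in LR7. The HR7 pools were almost equal, whereas the LR7 pools spread over 0.91 below them. The difference was 2.27 (standard error 0.22, limma adjusted p 0.00128). The LR7 signals of COL17A1 were below the array median, where a log2 difference is imprecise, and it was tested only because all HR7 pools were above that median. Without a filter its adjusted p was 0.0367 in limma. A second COL17A1 probe set of low signal had 5.66, 6.12 and 6.26 in HR7, against 5.58, 5.41 and 5.66 in LR7, a difference of 0.46, and was not tested.

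KRT5, the keratin of the basal layer of stratified epithelia, followed the same order without passing in the fit of all arrays. Its signal was 10.42, 10.16 and 10.60 in HR7 against 7.38, 8.21 and 8.20 in LR7. These groups stood 1.95 apart. The difference of 2.46, or 5.51-fold, had a standard error of 0.59 and a limma adjusted p of 0.428. The 3 LR3 pools of KRT5, which share in the estimate of the spread, ranged from 4.10 to 7.11. With the 6 day 7 arrays alone the adjusted p of KRT5 was 0.0411 in limma. A second KRT5 probe set of low signal (6.15 to 7.11) differed by -0.14 and was not tested.

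KRT17, a keratin of activated and basal epithelial cells, had signals of 8.61, 8.70 and 8.03 in HR7, against 7.79, 7.11 and 6.83 in LR7. The groups did not overlap, and the difference was 1.20 (limma adjusted p 0.256). All gene lists here were chosen with earlier results of these data known. The list of basal and squamous keratins had 8 genes on the array, of which 5 were tested. For 3 of these 5 all HR7 pools lay above all LR7 pools, against 4.55% of all genes tested. The median difference of the 5 was 1.20, against -0.01 over the 3783 genes, and 0.43 without a filter. KRT10, a keratin of the suprabasal layers, differed by -0.10.

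The marker list for basal and squamous epithelium of the vagina and cervix held 14 genes on the array. Of the 7 tested, 2 passed, both higher (KRT15 and COL17A1, the only genes to pass when each had 1 probe set, 0.0529% of all). COL17A1 and PKP1 were tested only through HR7. The mean log2 level over all 14 genes was 7.00, 6.82 and 6.91 in the HR7 pools and 6.15, 6.04 and 5.93 in the LR7 pools, without overlap. The other tested markers of this list differed less. S100A2 differed by 0.20 and PKP1, a desmosomal plaque protein, by 0.09. Among the 7 markers too low to be tested, KRT14 had 5.92, 6.01 and 6.15 in HR7, against 6.25, 5.94 and 6.18 in LR7, so the groups overlapped. KRT4, a keratin of non-cornified squamous epithelium, differed by 0.45, also in the low range. LYPD3, a surface protein of the suprabasal layers, had 6.0, 5.95 and 6.26 in HR7, against 5.30, 4.86 and 5.17 in LR7 (difference 0.96, with no overlap). The desmosomal cadherins DSC3 and DSG1 and the transcription factor SOX2 stayed at 4.69 or lower on all 6 arrays. TP63, KRT13 and IVL were among the 12 entries of this list without a match on the array. The part of vaginal or cervical cells in the keratin differences was not tested.

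Simple epithelial markers, which define the uterine lining, were high in all 6 pools. KRT19 had 13.06, 12.59 and 12.77 in HR7, against 12.51, 12.01 and 12.41 in LR7, a difference of 0.50 (limma adjusted p 0.746). KRT7 differed by 0.45, with 0.04 between the nearest pools. The mean level of the 12 uterine epithelial markers on the array was 10.40 to 10.59 in HR7 and 10.20 to 10.42 in LR7. Among the other anchorage genes, the laminin chain LAMB3 differed by 0.24. In the hemidesmosome and basement membrane list COL17A1 was the only one of 6 tested genes to pass.

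**Figure D2:**
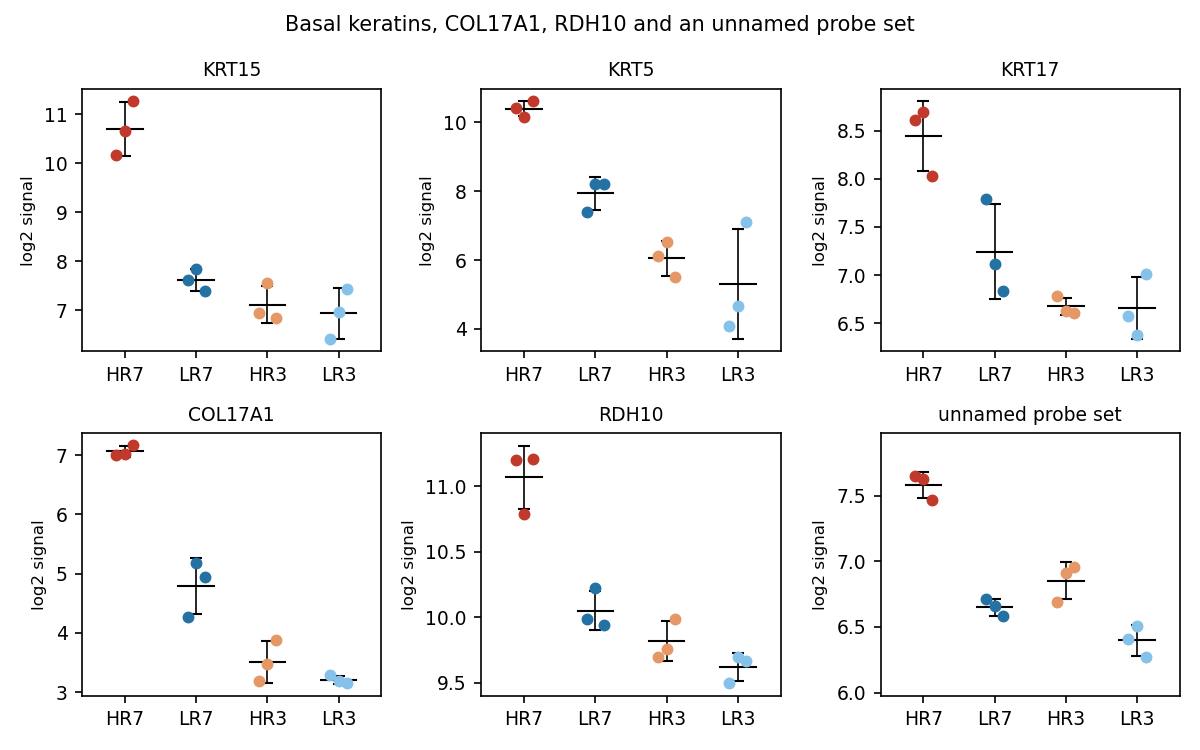
Log2 signal of 5 named genes and the unnamed probe set in the 3 pools of each group. Points are pools, horizontal lines are group means and bars are standard deviations. The HR7 pools stand above the pools of the other 3 groups in each panel, and the LR7 pools of KRT15 lie near the day 3 pools.

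RDH10, the retinol dehydrogenase that makes the precursor of retinoic acid, was 2.02-fold more abundant in HR7. The probe set that passed had 11.20, 10.79 and 11.21 in HR7, against 9.99, 10.22 and 9.94 in LR7. The groups stood 0.57 apart, and the difference of 1.02 had a standard error of 0.15 and a limma adjusted p of 0.0345. With the pool number as a block the adjusted p was 0.121 in limma, so the call was lost. It was also lost without a filter (limma adjusted p 0.134) and with the day 7 arrays alone (limma adjusted p 0.205). A second RDH10 probe set, of higher signal, had 11.47, 11.10 and 11.54 against 10.10, 10.56 and 10.23. It differed by 1.07 with an adjusted p of 0.0584 in limma. Leaving out LR7 pool 1 put the adjusted p of the first probe set at 0.202, and it passed in 1 of the 6 fits that each left out a day 7 pool.

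Other genes of the retinoid pathway did not pass. ALDH1A1, which oxidizes retinal to retinoic acid, had 11.14, 11.27 and 11.04 in HR7, against 10.72, 10.92 and 10.90 in LR7, a difference of 0.30. DHRS3, which turns retinal back into retinol, differed by 0.35 with overlapping pools. CRABP1, a cytosolic binding protein for retinoic acid, was lower in every HR7 pool (6.95, 7.24 and 7.20 against 7.85, 7.36 and 7.50, difference -0.44, limma adjusted p 0.853). Over the 14 tested members of this list, 9 differences were above 0 and 5 below, with a median of 0.06.

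The probe set without a symbol had 7.65, 7.63 and 7.47 in HR7, against 6.71, 6.66 and 6.58 in LR7. Spread within each group was at most 0.18, and the groups stood 0.76 apart. The difference was 0.93 (standard error 0.13, limma adjusted p 0.0164). It was tested only through HR7, and without a filter its adjusted p was 0.0652 in limma. Its adjusted p with the pool number as a block was 0.0669 in limma, and it passed in none of the 6 fits without a day 7 pool, where it ranged from 0.0575 to 0.153. COL17A1 and the first KRT15 probe set passed in all 6.

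Among the genes next in order, FCGR2B encodes the inhibitory Fc receptor for immunoglobulin G on macrophages and B cells. Its signal was 10.45, 10.18 and 10.26 in HR7, against 8.92, 9.25 and 9.07 in LR7. No LR7 pool came within 0.93 of an HR7 pool, and the difference was 1.22 (2.32-fold, limma adjusted p 0.167). F13A1, the coagulation factor XIII subunit made by tissue macrophages, had 9.31, 8.84 and 9.75 against 7.23, 7.59 and 8.40, a difference of 1.56 (limma adjusted p 0.428). The scavenger receptor MSR1 had 8.52, 9.64 and 8.84 against 8.12, 8.31 and 8.10, a difference of 0.82 (limma adjusted p 0.651). All 3 genes were in the macrophage marker list, and they were the only ones of its 12 tested genes with an unadjusted p under 0.05, against 2.85% of all genes tested that were higher at this p. The median of the 12 was 0.23. The general macrophage markers CD68 and CD14 differed by 0.32 and 0.42 with overlapping pools. The mean level of the 19 markers on the array was 7.32, 8.05 and 7.59 in HR7, against 7.34, 7.31 and 7.41 in LR7, which overlapped. The log2 of their summed signal, set mostly by the brightest markers, did not overlap. It was 13.36, 13.85 and 13.55 in HR7, against 13.29, 13.31 and 13.23 in LR7. The part of macrophage numbers in FCGR2B was not tested.

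Of the genes of innate immune sensing none passed the threshold. TNFSF13 encodes the cytokine APRIL, which sustains plasma cells. Its signal was 7.51, 7.41 and 7.39 in HR7, against 6.96, 6.76 and 6.88 in LR7 (difference 0.57, limma adjusted p 0.428). The inflammasome adaptor PYCARD had 9.06, 8.90 and 9.02 in HR7, against 7.86, 8.46 and 8.45 in LR7 (difference 0.74, limma adjusted p 0.575). In both genes every HR7 pool was above every LR7 pool. IL18, the cytokine that inflammasomes activate, differed by 0.63, but LR7 pool 3 at 9.22 lay above HR7 pool 1 at 9.13. TLR2 and TLR6, partner receptors for bacterial lipoproteins, differed by 0.45 and 0.36 with no overlap, in a list of Toll-like receptors and NF-kappaB signaling whose 13 tested genes had a median of 0.03, with 9 above 0. In the list of cytokines, inflammasome components and receptors, 12 of 16 tested genes were above 0 and the median was 0.21 (0.12 without a filter). CASP1 of this list was tested only through HR7. Of these 16 genes, 3 had an unadjusted p under 0.05 in the direction of HR7, against 2.85% of all genes tested, and none had one in the other direction.

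The calgranulins S100A8, S100A9 and S100A12, calcium-binding proteins abundant in neutrophils, were all higher in HR7 pools. S100A8 had 10.91, 11.73 and 11.34 in HR7, against 9.95, 10.62 and 9.93 in LR7 (difference 1.16, limma adjusted p 0.645). S100A12 had 12.04, 13.09 and 12.43 against 11.28, 11.91 and 11.16 (difference 1.07), and S100A9 differed by 0.74. In each of these genes the highest pool of both groups was pool 2. These are also the neutrophil markers, so that list had a median of 0.90 over 4 tested genes, and of 0.23 over all its genes on the array without a filter. Of the 14 neutrophil markers on the array 10 were too low to be tested. CXCR1, the neutrophil receptor for interleukin 8, had 7.91, 6.78 and 5.33 in HR7, against 5.47, 5.26 and 4.67 in LR7, and MPO stayed at 4.74 or lower. The mean level of the 14 markers was 6.20 to 6.64 in HR7 and 6.02 to 6.30 in LR7, which overlapped. The log2 of their summed signal, set mostly by the brightest markers, did not overlap (12.95 to 13.75 and 12.18 to 12.69). The part of neutrophil numbers in these differences was not tested.

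Epithelial transport and hormone handling also held genes with separate groups. AQP3, a water and glycerol channel of the basolateral membrane, had 8.43, 8.50 and 8.62 in HR7, against 7.10, 6.66 and 7.40 in LR7. The HR7 pools were within 0.19 of each other and 1.03 above the nearest LR7 pool, for a difference of 1.46 (2.76-fold, limma adjusted p 0.256). SLC6A14, an amino acid transporter with broad specificity, had 9.63, 10.05 and 10.05 against 9.21, 8.83 and 8.94 (difference 0.92, limma adjusted p 0.238). SCNN1G, the gamma subunit of the epithelial sodium channel, differed by 0.94, and ATP1B3, a beta subunit of the sodium pump, by 0.41, both without overlap. Of the 17 tested aquaporins and ion transporters 3 had an unadjusted p under 0.05, all higher in HR7, against 2.85% of all genes tested, with a list median of 0.10. AQP3 was tested only through HR7.

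HSD11B2 inactivates cortisol and so keeps it from the mineralocorticoid receptor. Its signal was 9.40, 9.53 and 9.47 in HR7, against 8.36, 8.26 and 8.62 in LR7 (difference 1.05, 2.08-fold, limma adjusted p 0.284). The groups were 0.78 apart. HSD17B10, a mitochondrial dehydrogenase, differed by -0.45. PRLR, the prolactin receptor, had 7.80, 7.33 and 7.30 in HR7, against 5.34, 6.28 and 6.94 in LR7 (difference 1.29, limma adjusted p 0.575), where the LR7 pools were far apart. It was tested only through HR7, the group where it was high. The growth factor and prolactin signaling list that holds PRLR had a median of 0.07 over 23 tested genes, with 12 above and 11 below 0. PIM1 and SOCS2, both induced by the JAK and STAT pathway that PRLR feeds, differed by 0.46 and 0.40 without overlap. SPP1, the adhesive glycoprotein osteopontin, differed by 0.69 with overlapping pools. The list of progesterone-linked and secreted uterine genes had a median of 0.01 over 29 tested genes, with 18 above and 11 below 0.

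Genes of cell adhesion and matrix remodelling that stood apart were also higher in HR7. ADAMTS1, a matrix protease induced by progesterone in reproductive tissues, had 9.61, 9.90 and 9.51 in HR7, against 8.77, 8.96 and 8.49 in LR7 (difference 0.93, limma adjusted p 0.256). FN1, fibronectin, had 13.15, 12.40 and 12.35 against 12.05, 11.18 and 11.82 (difference 0.95, limma adjusted p 0.529). A2M, a broad protease inhibitor, differed by 1.18 and the laminin receptor subunit ITGA7 by 0.78, both without overlap. DYSF, a membrane repair protein, had 7.87, 7.79 and 7.82 against 6.94, 7.34 and 7.15 (difference 0.68, limma adjusted p 0.256). LOC100847724, a locus without a gene name, differed by 1.58 (9.88, 9.18 and 9.68 against 7.89, 7.71 and 8.39, limma adjusted p 0.137). Of the 19 tested matrix proteases and inhibitors 16 were above 0, with a median of 0.22, and of 20 tested integrin and focal adhesion genes 15 were above 0, with a median of 0.16. Over all 3783 genes tested 1796 were above 0. ADAM9 in the first list and BCAR3 in the second were tested only through HR7.

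Transcripts of motile cilia were the clearest group that was lower in HR7, although none passed. The ciliated cell list had 7 genes on the array and 6 tested. All 6 differences were below 0, from -1.08 to -0.79, with a median of -0.90. At an unadjusted p under 0.05 there were 5 of the 6 that were lower, against 1.96% of all genes tested. The list was chosen with earlier results of these data known, so this count is not independent evidence. SPAG6, a protein of the central pair of the axoneme, had 5.63, 5.99 and 6.99 in HR7, against 7.13, 6.89 and 7.84 in LR7 (difference -1.08, limma adjusted p 0.746). HR7 pool 3 lay above LR7 pool 2, so the groups overlapped. DRC3, of the dynein regulatory complex, had 5.84, 6.31 and 6.75 in HR7, against 7.28, 6.87 and 7.76 in LR7 (difference -1.0), and it was the only one of the 6 whose groups did not overlap. TPPP3, TEKT1, ROPN1L and MLF1 differed by -1.03, -0.80, -0.80 and -0.79.

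Several of the 10 genes with the lowest p among those lower in HR7 also belong to the axoneme or its assembly. They were not in the list, and they were put beside it after their values were seen. DAW1, which helps to assemble outer dynein arms, had 5.86, 6.15 and 6.72 in HR7, against 7.43, 6.97 and 7.57 in LR7 (difference -1.08, limma adjusted p 0.485). GAS8, of the dynein regulatory complex, differed by -0.80 and CCDC153 by -0.91, both without overlap. The 2 probe sets of RSPH9, a radial spoke protein, differed by -0.68 without overlap and by -0.86 with overlap.

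In the ciliated cell list the mean level of the 7 genes was 5.61, 5.57 and 6.33 in the HR7 pools and 6.84, 6.72 and 6.98 in the LR7 pools. These means stood apart, but they include 1 gene that was not tested. By the log2 of the summed signal the groups overlapped, with HR7 pool 3 (10.07) above LR7 pool 2 (9.87). HR7 pool 3 was the highest pool of its group for all 6 tested genes of the list, whereas the highest LR7 pool was pool 1 for ROPN1L and pool 3 for the other 5. At day 3 the same 6 genes had a median difference of -0.08. CLDN10, a claudin of secretory and ciliated epithelia, had 9.69, 9.65 and 10.39 in HR7, against 10.43, 10.38 and 11.06 in LR7 (difference -0.71, limma adjusted p 0.686). Its groups overlapped, and pool 3 was highest in both. MYB, a transcription factor that also acts in the formation of multiciliated cells, had 6.16, 7.01 and 6.90 against 8.39, 7.24 and 7.68 (difference -1.08, limma adjusted p 0.575). CLDN10 and MYB were not in the ciliated cell list and were named for their low p in other lists. The part of ciliated cell numbers in these differences was not tested.

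**Figure D3:**
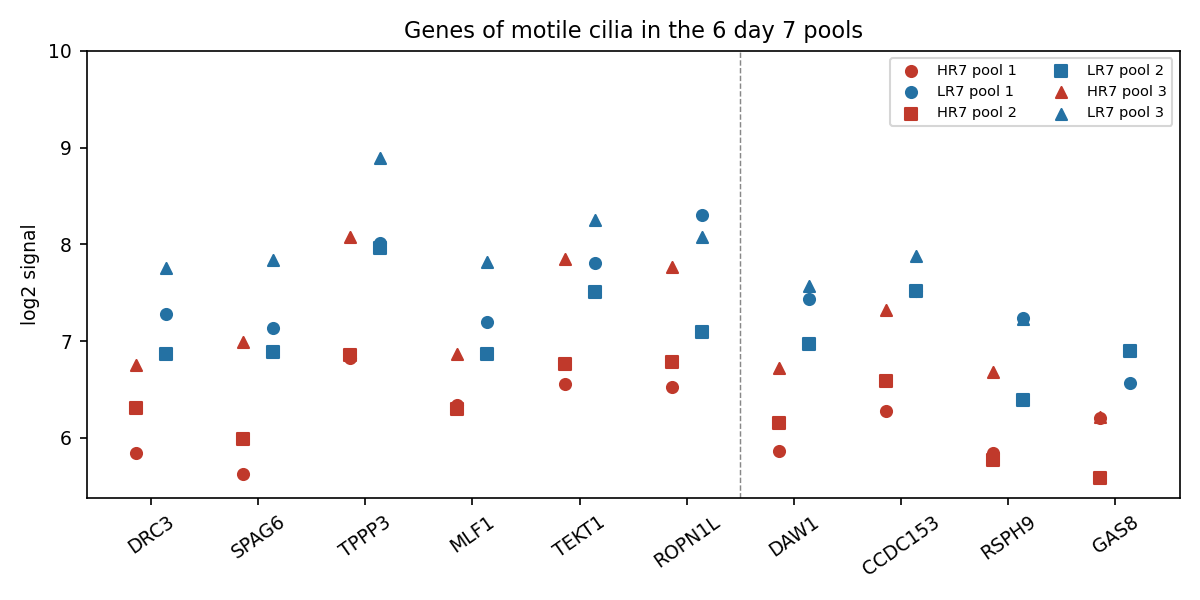
Log2 signal of the 6 tested ciliated cell markers (left of the dashed line) and of 4 further axonemal genes named for a low p (right of it) in each day 7 pool. The RSPH9 probe set shown is the one that differed by -0.86 (unadjusted p 0.0124 in limma). Red is HR7, blue is LR7 and the symbol shape gives the pool number. HR7 pools 1 and 2 lie below all 3 LR7 pools in each of the 10 genes, and HR7 pool 3 lies above LR7 pool 2 in SPAG6, TPPP3, TEKT1, ROPN1L and RSPH9.

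Of the other genes lower in HR7, PIP, the prolactin-induced protein of glandular secretions, had the lowest p. Its signal was 8.39, 8.53 and 8.15 in HR7, against 9.22, 9.85 and 9.13 in LR7 (difference -1.04, limma adjusted p 0.284). At day 3 the difference was -0.75. CYP2B6, a cytochrome P450 of steroid and drug metabolism, had 6.58, 6.21 and 7.40 against 7.83, 7.93 and 8.70 (difference -1.42, limma adjusted p 0.560). GUCY1A1, the alpha subunit of the nitric oxide receptor, had 7.92, 7.77 and 7.92 against 8.45, 8.26 and 8.49 (difference -0.53, limma adjusted p 0.437). The G protein subunit GNB4 and the membrane protein TMEM220 differed by -0.76 and -0.51 without overlap. FUT1, a fucosyltransferase that makes the H antigen, differed by -1.18 at day 7 and -1.12 at day 3. It was tested only through LR7, the day 7 group where it was high.

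The interferon-stimulated genes differed in both directions. IFI6 had 10.84, 10.90 and 10.61 in HR7, against 11.25, 11.77 and 12.66 in LR7 (difference -1.11, limma adjusted p 0.479). MX1 had 9.95, 9.90 and 9.73 against 10.51, 10.09 and 10.66 (difference -0.56, limma adjusted p 0.575). The transcription factor IRF5 was higher in HR7 by 0.36, without overlap. Of the 24 tested genes 8 were above 0 and 16 below, with a median of -0.07.

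Chaperones were mixed as well. HSPB8, a small heat shock protein, had 7.09, 7.28 and 8.08 in HR7, against 8.63, 8.39 and 8.30 in LR7 (difference -0.96, limma adjusted p 0.575), and DNAJA4 and HSPA2 differed by -0.40 and -0.46 without overlap. Of 23 tested heat shock proteins and cochaperones, 5 had all HR7 pools below all LR7 pools, against 4.26% of all genes tested, but the median was 0.05 and 14 were above 0. NQO1 and MGST1, detoxifying enzymes that NRF2 can induce, were higher in HR7 by 0.63 and 0.30, and the median over the 26 tested genes of that list was 0.07.

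Lists of basic cell functions showed small differences. The median was -0.05 for 40 tested genes of nuclear oxidative phosphorylation (8 above and 32 below 0), 0.04 for 12 cytosolic ribosomal proteins, -0.09 for 31 genes of the cell cycle and DNA replication, -0.01 for 34 genes of the secretory pathway and 0.02 for 36 genes of lipid and cholesterol metabolism. NDUFS3 of complex I was higher by 0.82 on 1 probe set of low signal, which was tested only through HR7. It was lower by 0.09 on a second, brighter probe set that was not tested. For 32 collagens and matrix genes the median was 0.22 at day 7 and 0.47 at day 3. DNMT3A, a de novo DNA methyltransferase, had 7.08, 7.39 and 7.31 in HR7, against 7.60, 7.71 and 7.71 in LR7 (difference -0.41, limma adjusted p 0.997). A second tested probe set differed by 0.11 with overlapping pools. HPGD, which degrades prostaglandins, differed by -0.47, and PTGES, a prostaglandin E synthase, by 0.51 with overlapping pools.

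**Figure D4:**
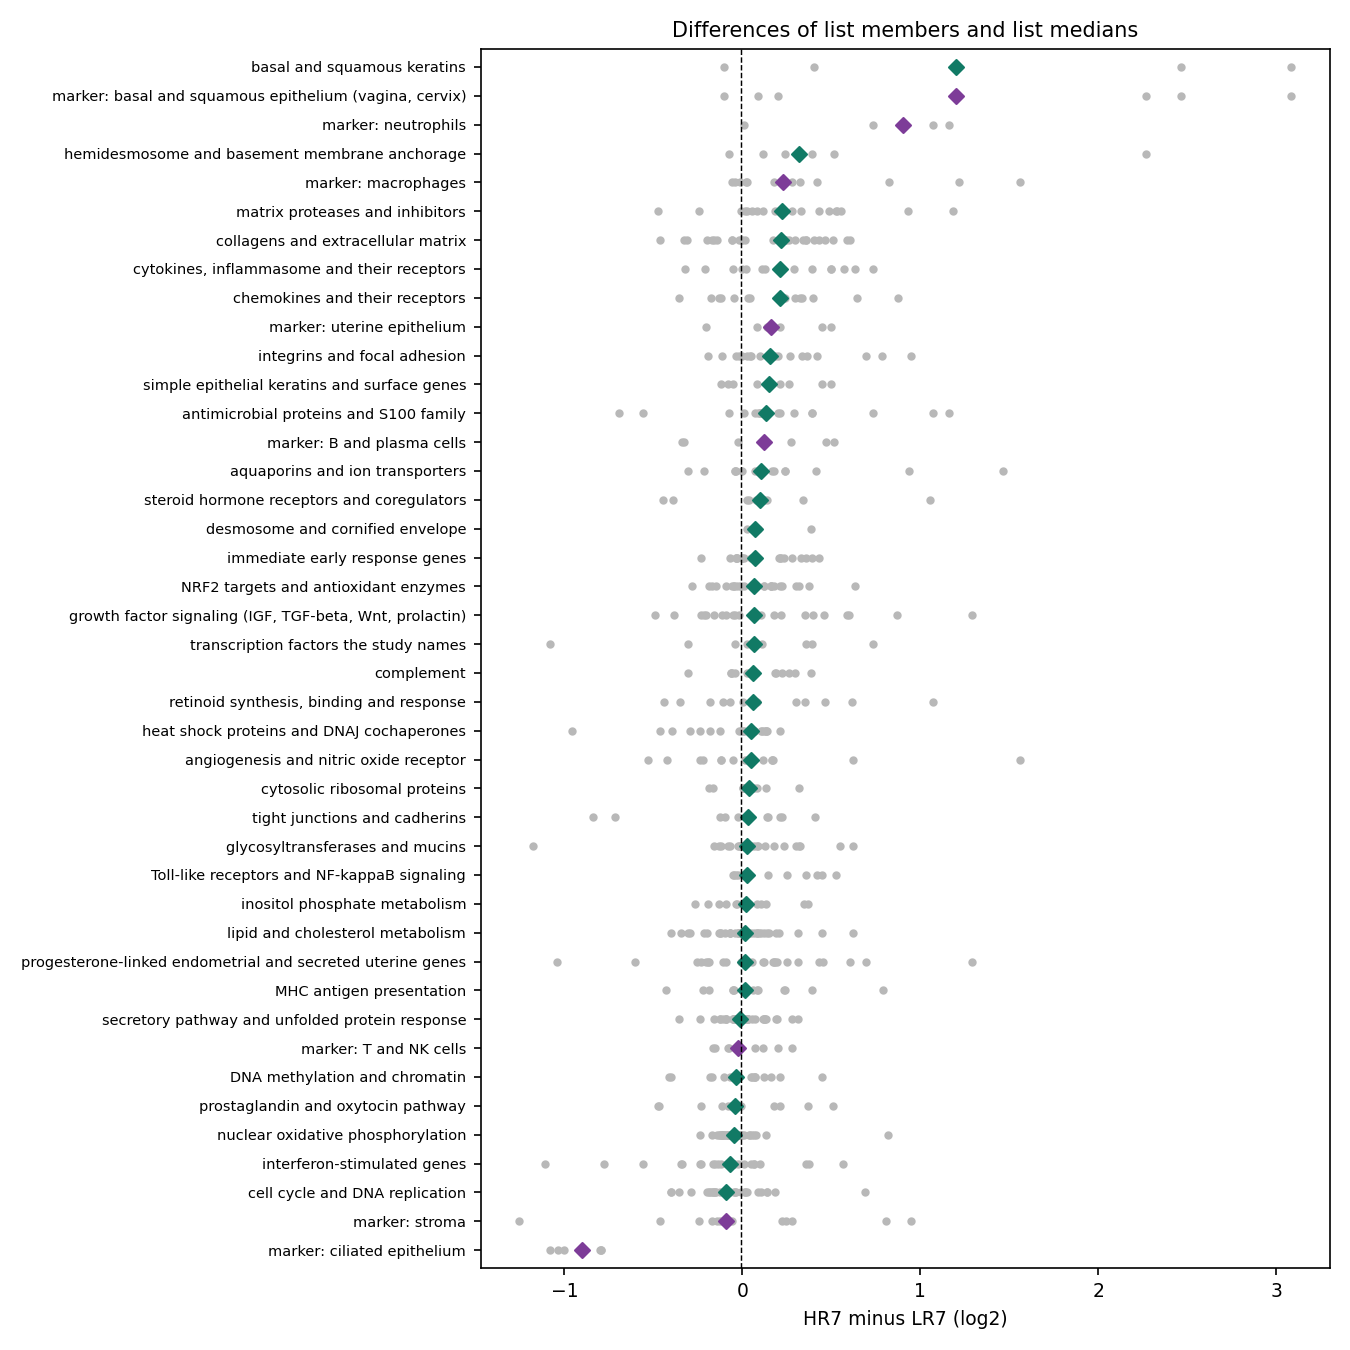
Difference between HR7 and LR7 (log2) for the tested genes of each process or marker list with at least 4 tested genes. Grey points are genes, green diamonds are medians of process lists, purple diamonds are medians of marker lists, and the dashed line is the median over all genes tested (-0.01). Basal keratins and basal and squamous markers lie highest, both at 1.20, then neutrophil markers at 0.90, and ciliated cell markers lie lowest at -0.90.

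The gene groups that the study set out for day 7 were chosen on these arrays, so their directions are not independent evidence. Of the 12 tested FOS targets all were higher in HR7 and 9 had an unadjusted p under 0.05, against 2.85% of all genes tested. They include AQP3, S100A8, S100A9, FN1, A2M, the adhesion molecule CADM1 (difference 0.41) and the selenium-binding protein SELENBP1 (0.83). None of the 12 passed the adjusted threshold. AQP3 and BCAR3 of this group were tested only through HR7, where they were high. The 5 tested genes set under TFAP2A, RELB and PYCARD were all higher, from 0.40 for the chemokine CXCL2 and 0.41 for the phospholipase inhibitor ANXA1 to 2.46 for KRT5. The 3 tested genes of inositol phosphate metabolism that the study names were higher by 0.35 to 0.46, whereas the wider list of 13 tested genes had a median of 0.02. The 4 genes placed under the oxidative stress response were all lower, from -0.96 for HSPB8 to -0.24 for DNAJC11. In the NF-kappaB group IL18 and TLR2 differed by 0.63 and 0.45 and FGFR3, a fibroblast growth factor receptor, differed by -0.42 with overlapping pools. FGFR3 was tested only through LR7. The 4 tested genes under T and B cell signaling, IL18, TLR2 and TNFSF13 among them, were above 0, from 0.24 to 0.63. CD80 of this group was tested only through HR7. The 3 under inhibition of angiogenesis were below 0, from -0.53 for GUCY1A1 to -0.12.

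The day 7 differences were set against the day 3 differences in the same fit. The interaction passed the adjusted threshold for 0 of 7339 probe sets in limma, against 286 (3.90%) at an unadjusted p under 0.05. The smallest interaction p-values belonged to KRT15 and COL17A1. KRT15 differed by 3.08 at day 7 and by 0.18 at day 3 (interaction 2.91, unadjusted p 2.29e-05, adjusted p 0.109 in limma). COL17A1 differed by 2.27 and by 0.30 (interaction 1.97, unadjusted p 4.48e-05, adjusted p 0.109 in limma).

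Several genes had differences of opposite sign on the 2 days. FCGR2B had 1.22 at day 7 and -0.48 at day 3 (unadjusted interaction p 0.000206, adjusted p 0.269 in limma). LOC100847724 had 1.58 at day 7 and -0.61 at day 3, and SLC6A14 had 0.92 and -0.36. S100A8 had 1.16 and -0.75, S100A9 had 0.74 and -0.43, and S100A12 had 1.07 and -0.83. SLC5A1, the sodium-glucose cotransporter, differed by 0.45 at day 7 with overlapping pools and by -2.31 at day 3 (unadjusted interaction p 0.00022 in limma). As none passed after adjustment, the 2 days were not shown to differ for these genes.

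**Figure D5:**
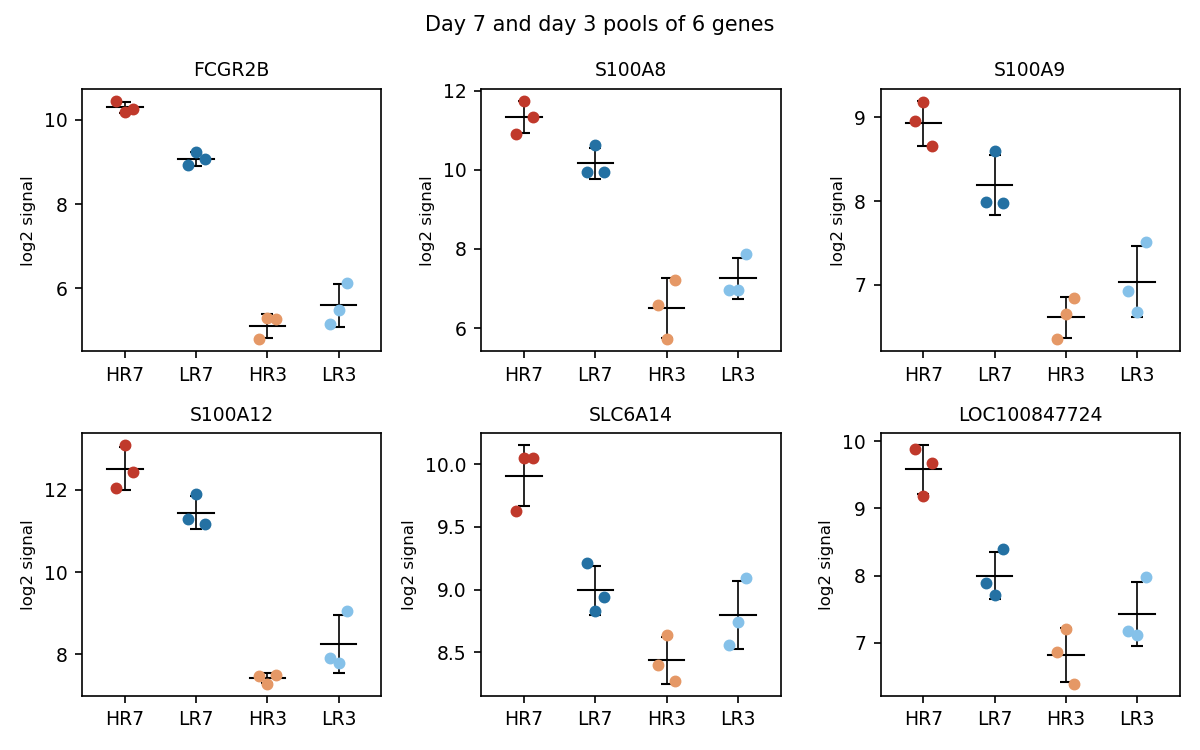
Log2 signal of 6 genes with large interactions in the 3 pools of each group at day 7 and day 3. Points are pools, lines are means and bars are standard deviations. HR7 lies above LR7 in every panel, and the HR3 mean lies below the LR3 mean in every panel.

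Markers of other cell types gave mixed values. T and NK cell markers had a median of -0.03 over 9 tested genes and B and plasma cell markers 0.12 over 6, of which PRDM1, a transcription factor of plasma cells, was apart (difference 0.52). The mast cell and eosinophil list had 1 tested gene, the receptor KIT. Its signal was 8.39, 8.63 and 8.59 in HR7, against 7.61, 8.05 and 8.27 in LR7 (difference 0.56, limma adjusted p 0.997). The mean level of the 4 genes of this list on the array overlapped (4.60 to 5.31 and 4.77 to 5.20). The log2 of their summed signal did not overlap (8.63 to 8.81 and 7.91 to 8.53). Of the stromal markers 12 were tested, with a median of -0.09, and their mean level was highest in HR7 pool 3 (9.18) and ranged from 8.01 to 8.63 in LR7. Only 1 of 14 endothelial markers on the array and 2 of 10 red cell markers were high enough to be tested. Of the mucous cervical markers 3 were tested. SPDEF, a transcription factor of mucus-secreting cells, had 7.35, 6.55 and 6.82 in HR7, against 7.62, 7.48 and 7.80 in LR7 (difference -0.73, limma adjusted p 0.905), with no overlap, whereas the median of the 3 was 0.09. SPDEF was tested only through LR7, the group where it was high. The 5' minus 3' signal of the actin control, a measure of RNA integrity, was -0.30, -0.77 and -1.16 in HR7, against -1.53, -1.01 and -0.62 in LR7, which overlapped.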

How the data were processed

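RNA pools were hybridized to Affymetrix bovine arrays. Per the labels and methods, the authors ran GCOS 1.1.1 with global scaling and summarised probe sets with PLIER in Expression Console, and the deposited values are log2 PLIER signals. No present calls were used here. As a stand-in, a probe set was tested if all 3 arrays of some group had it above their median and its values over all 12 arrays had a standard deviation of 0.2 or more. This left 7339 of 24016, of which 148 passed through HR7 alone and 78 through LR7 alone. A linear model with the 4 groups was fitted to all 12 arrays with limma 3.58.1 in R 4.3.3 (lmFit, eBayes, Benjamini-Hochberg over all tested probe sets), and tables were made with Python 3.11.15. The fit was tested on simulated data. Symbols came from the platform annotation. A gene in a list stands by its tested probe set of highest mean signal, and genes with several symbols were not named. A p-value here reflects the spread between pools only, with 3 arrays a group. In the main fit that spread was estimated within the 4 groups over all 12 arrays and drawn toward that of the other probe sets.

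Named were all genes that passed, the 10 genes with the lowest p in each direction, genes of the study's day 7 comparison and qRT-PCR, and members of each list with the lowest p or the highest signal. The members, lists and rule were chosen with earlier results of these data known. Pool numbers of the titles were compared between HR7 and LR7. Deviations from the group means of same-numbered pools correlated at 0.136, 0.147 and 0.445 across probe sets, so a fit with the number as a block is given where it changes a call. The labels do not state what a number stands for, and HR7 pool 2 correlated best with LR7 pool 1 (0.355).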

Additional observations from a re-analysis of the deposited data

How the results depend on the processing

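The day 7 count of 5 probe sets depended on the processing, and in every fit all calls were higher in HR7. It was 2 without a filter, 2 with the mean of the 12 arrays as the stand-in for present calls, 0 with the stand-in required on all 12 arrays (133 higher and 72 lower at an unadjusted p under 0.05 in limma, where COL17A1 and KRT15 were not among the 5482 probe sets tested), 8 with 16 added to the linear signal and 3 with the 6 day 7 arrays alone. Leaving out 1 day 7 pool gave 2 to 6, the lowest without LR7 pool 1 or LR7 pool 3, where COL17A1 and 1 KRT15 probe set remained. With the pool number as a replicate block 3 probe sets passed (COL17A1 and both of KRT15), and with that block in the 6 day 7 arrays alone, a setting chosen after seeing the data, 4. The block changed no other call named here. At an adjusted p of 0.16 there were 7.

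The number of list genes that passed was 2, and 4 with 16 added to the linear signal. Leaving out 1 pool gave 2 to 3. The interaction passed for 0 probe sets, 1 without a filter and 0 to 2 when 1 pool was left out (2 without HR3 pool 1, 1 without LR3 pool 3). Of 90 named probe sets 89 kept their sign in every fit. PKP1 turned to -0.06 with array weights and ranged from -0.27 to 0.28 when 1 pool was left out (negative without LR7 pool 3). The cause was not tested. Of 55 list medians 23 moved by more than the spread between pools in some fit. Without a filter the median of basal and squamous keratins was 0.43, of basal and squamous epithelium markers 0.49, of neutrophil markers 0.23 and of the cytokine list 0.12. The macrophage median ranged from 0.03 to 0.50 when 1 pool was left out (0.03 without HR7 pool 2, 0.11 without LR7 pool 3).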
